A study of Mus musculus with 9 samples.

Results

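Cholesterol synthesis enzymes, targets of the liver X receptors and the genes that sense and move cholesterol were examined in macrophages sorted from the colon of mice with colitis. The list held 32 genes, chosen by name, and 29 of them were measured by a probe set of their own, out of 22180 single-symbol genes on the array. A gene was represented by the probe set that carried its symbol alone and was the brightest by the mean of the 9 arrays. Nr1h2, Idi1 and Soat1 had no such probe set and were dropped, Idi1 because its probe set also carried Gm13502. Of the 29 measured genes, 1 was a receptor, 8 were efflux genes and other receptor targets, 3 were genes of sterol sensing, 11 were synthesis enzymes and 6 were genes of uptake, lysosomal export, transport and oxysterol formation. The group of 8 is called efflux genes below, although Mylip, Lpcat3 and Srebf1 in it are receptor targets with other roles.

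The samples were lamina propria macrophages, sorted as CD45+, CD11b+ and F4/80+ cells, from 4 LysMCre;Arntfl/fl and 5 LysMCre female C57BL/6 mice housed together, with 1 array per mouse and no pooling. LysMCre;Arntfl/fl mice carry conditional Arnt alleles and the Cre recombinase, and LysMCre mice carry the same Cre with intact Arnt. All 9 mice drank 3% dextran sodium sulfate (DSS), which injures the colon epithelium, for 5 days and then regular water for 3 days, and cells were taken on Day 8. Their age is not given in the sources used here. The Cre is expressed from the lysozyme M locus, which is active in neutrophils as well as in monocytes and macrophages, and recombination becomes more complete as monocytes mature, so a sorted population can hold cells that kept the allele.

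ARNT is the shared partner of the hypoxia-inducible factors HIF-1α and HIF-2α and of the aryl hydrocarbon receptor. Cells hold their cholesterol steady through a pair of opposed programs. When sterol in the endoplasmic reticulum is low, SREBP-2 is released from its INSIG anchor and switches on the enzymes that build cholesterol from acetyl-CoA; when sterol and its oxidised forms accumulate, the liver X receptors (LXRs) bind DNA with RXR and switch on transporters and apolipoproteins that carry cholesterol out. Macrophages that engulf dying cells take up much cholesterol and are known for strong LXR target expression.

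Because SREBP-2 is known to act beside the factor NF-Y, promoter windows of the list were searched for the letters of their sites. RefSeq windows on GRCm38.p6, each running from 250 bases before to 50 bases after a start site, were found for 24 of the 32 genes. The NF-Y box CCAAT, read on both strands, stood in a window of 9 of 9 synthesis enzymes that had one (8 of 8 among the measured enzymes), 3 of 3 sensing genes, 3 of 6 efflux genes and 3 of 4 genes of uptake and transport, beside 41.1% of all 27025 genes with a window. The core of the sterol regulatory element, CACCCCAC, stood in 1 gene of the list, Hmgcs1, and in 3.3% of all genes. The LXR element, taken as a direct repeat of AGGTCA with a spacer of 4 bases, stood in 0 of the 24 genes and in 0.0148% of all genes. The core of the hypoxia response element, ACGTG, stood in Abca1, Apoc2, Insig1 and Dhcr7, which is 16.7% of the genes with a window, against 21.8% of all genes. These matches are descriptions of letters, no binding was measured, and a window without a match says nothing about a site elsewhere. Only these exact letters were searched, so a variant form of a site within a window was not counted. The LXR repeat was so rare among all genes that 0 of 24 could not set the list apart. Of the 12 windows of the synthesis enzymes 9 held the NF-Y box, beside 37.4% of all windows. The windows of the 3 enzymes whose arrays did not overlap between genotypes, and that of Hmgcs1 with the sterol core, are shown 5′ to 3′ along the strand of the gene. Where a gene had several windows, a window that held the box was chosen. Capitals mark the NF-Y box (CCAAT, or ATTGG where it lies on the other strand) and the sterol core. They lie at chr3:89454291-89454590 on the plus strand (Pmvk, 1 of its 2 windows), chr5:4104648-4104947 on the minus strand (Cyp51), chr7:143829964-143830263 on the plus strand (Dhcr7, 1 of its 3 windows) and chr13:119690101-119690400 on the plus strand (Hmgcs1).
Pmvk: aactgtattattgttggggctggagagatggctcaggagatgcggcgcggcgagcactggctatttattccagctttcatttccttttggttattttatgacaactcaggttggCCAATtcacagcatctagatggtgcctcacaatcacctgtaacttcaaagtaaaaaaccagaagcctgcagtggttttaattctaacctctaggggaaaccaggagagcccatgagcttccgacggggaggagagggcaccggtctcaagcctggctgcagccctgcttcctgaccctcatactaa
Cyp51: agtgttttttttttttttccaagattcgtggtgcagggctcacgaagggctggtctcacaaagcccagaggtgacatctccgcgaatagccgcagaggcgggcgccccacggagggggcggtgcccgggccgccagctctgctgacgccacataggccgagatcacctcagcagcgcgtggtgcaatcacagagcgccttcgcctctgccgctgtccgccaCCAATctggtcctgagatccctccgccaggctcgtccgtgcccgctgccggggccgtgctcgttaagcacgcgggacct
Dhcr7: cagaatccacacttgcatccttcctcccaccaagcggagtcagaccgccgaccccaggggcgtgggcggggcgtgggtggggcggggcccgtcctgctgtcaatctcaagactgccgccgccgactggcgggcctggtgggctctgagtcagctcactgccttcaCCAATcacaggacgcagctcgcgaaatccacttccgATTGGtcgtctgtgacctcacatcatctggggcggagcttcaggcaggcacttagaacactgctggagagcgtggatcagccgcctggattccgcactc
Hmgcs1: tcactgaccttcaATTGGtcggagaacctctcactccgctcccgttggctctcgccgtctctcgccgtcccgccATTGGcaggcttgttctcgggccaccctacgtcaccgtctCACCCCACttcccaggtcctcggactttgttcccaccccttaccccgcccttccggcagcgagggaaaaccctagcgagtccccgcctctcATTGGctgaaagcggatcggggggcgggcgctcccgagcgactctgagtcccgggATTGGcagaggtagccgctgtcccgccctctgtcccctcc
The box began 136 bases before the start site in Pmvk and 29 bases before it in Cyp51. Dhcr7 held 2 boxes on opposite strands, 85 and 49 bases before the start. Hmgcs1 held 4 boxes, all on the other strand, with the sterol core 136 bases before the start and with 2 boxes on either side of it.

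The arrays matched the label of the deleted gene. Arnt had log2 values of 8.77, 8.60, 8.84 and 8.70 on the LysMCre;Arntfl/fl arrays and 9.54, 9.44, 9.36, 9.31 and 9.31 on the LysMCre arrays, with no overlap, and was 1.58-fold lower (log2 fold change -0.66 with a standard error of 0.09, adjusted p = 0.0214 from limma, over all 34365 probe sets). Without LysMCre;Arntfl/fl replicate 2, 3 or 4, or LysMCre replicate 3 or 5, its adjusted p from limma was 0.0534 to 0.0883. The log2 fold change is the mean of LysMCre;Arntfl/fl minus the mean of LysMCre arrays, and a gene was called at an adjusted p below 0.05 with a fold change above 1.5. Signal remained in the LysMCre;Arntfl/fl cells, and where its probes lie relative to the floxed part is not given in the sources used here. The 10 macrophage markers averaged 10.81 to 10.95 per LysMCre;Arntfl/fl array and 10.72 to 11.08 per LysMCre array, but single markers went both ways without overlap: Cx3cr1 had a log2 fold change of -0.83, Itgam of 0.44 and Cd14 of 0.12 (adjusted p = 0.103, 0.160 and 0.587 from limma). The 6 measured monocyte markers averaged 9.78 to 10.12 per LysMCre;Arntfl/fl array and 8.94 to 9.88 per LysMCre array. By their group means, 4 of them were higher in LysMCre;Arntfl/fl and 2 were lower. The widest difference was in Chil3 (2.25, adjusted p = 0.0896 from limma, no overlap), whereas Ccr2 was lower (-0.52, adjusted p = 0.196 from limma, overlapping arrays). The 15 neutrophil markers averaged 9.10 to 9.73 against 7.60 to 8.78, and the 6 measured adipocyte markers 7.24 to 7.85 against 6.28 to 6.79, both without overlap. The 14 colon epithelial markers averaged 8.34 to 9.09 in LysMCre;Arntfl/fl and 7.27 to 9.69 in LysMCre, where replicates 1 and 2 stood lowest at 7.38 and 7.27. RMA values have no true zero, so none of these markers could be read as absent. The part that cells of these types had in the results below was not tested, and in sorted bulk RNA fewer cells of a type and less RNA per cell cannot be told apart.

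None of the 29 genes was called, 0 higher and 0 lower, where 0.294% of all probe sets were called in either direction. The synthesis and efflux genes lay on opposite sides of zero: of the 11 enzymes 10 had a negative log2 fold change, with a median of -0.35, and of 8 efflux genes 7 had a positive one, with a median of 0.21. The median of all probe sets was 0.0066. At an unadjusted p below 0.05 from limma, 5 of the 29 genes (17.2%) were higher, beside 5.72% of all probe sets, and 9 (31%) were lower, beside 5.79%. Bright, annotated probe sets pass more often, and 28 of the 29 genes lay above the median brightness. Among the 13367 probe sets with 1 symbol above that median, 9.07% were higher and 9.37% lower at that p. The genotypes did not overlap for 1 gene that was higher, Nr1h3, and for 3 that were lower, Pmvk, Cyp51 and Dhcr7, which is 3.45% and 10.3% of the list, against 2.52% and 2.22% of all probe sets and 4.27% and 3.7% of the bright ones with 1 symbol. A fold above 1.5 was reached by 1 higher gene, Npc1, and 1 lower gene, Cyp51, where 1.09% and 1.53% of all probe sets reached it.

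**Figure D1:**
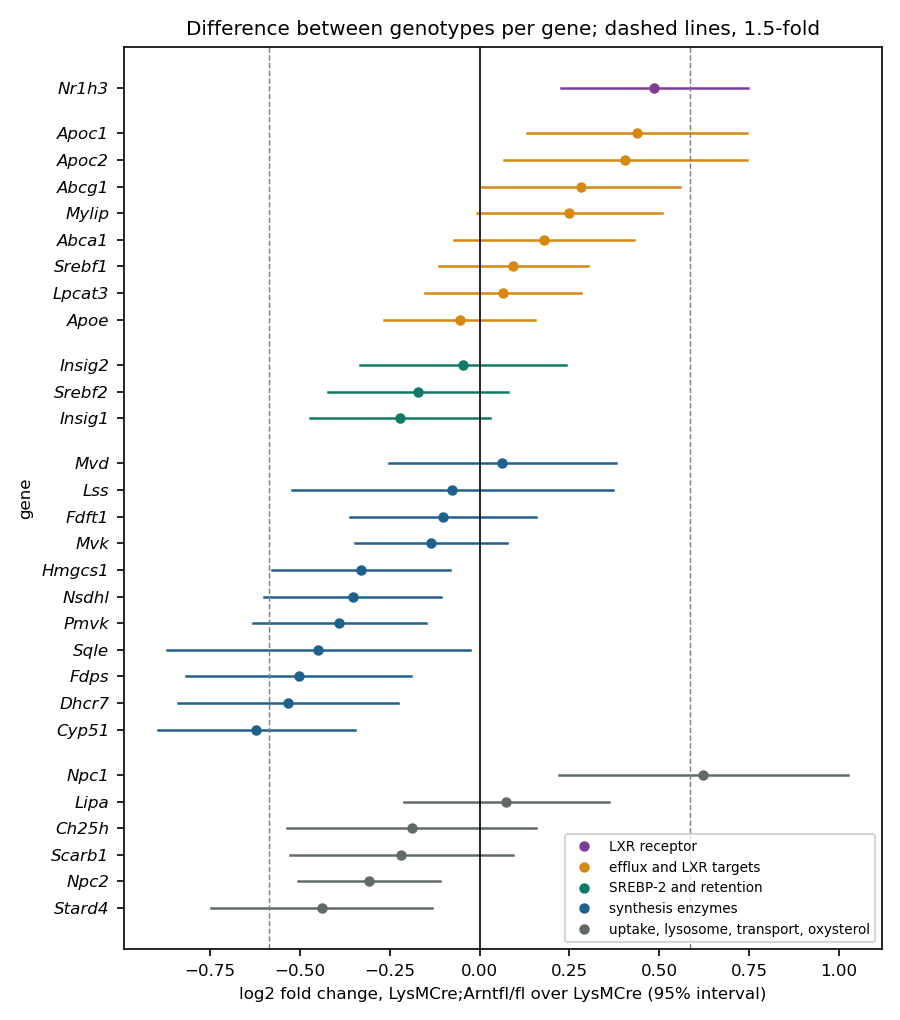
Log2 fold change of each of the 29 measured genes, LysMCre;Arntfl/fl over LysMCre, on the x axis, with its 95% interval from limma as a bar, genes grouped and coloured by role down the y axis, and dashed lines at 1.5-fold. Of the 11 synthesis enzymes 10 lie left of zero, and 7 of the 8 efflux genes and other LXR targets lie right of it. Npc1 and Cyp51 are the only points past the dashed lines.

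Nr1h3 encodes LXRα, the LXR form found mainly in macrophages, liver and fat. Its log2 values were 8.59, 8.36, 8.42 and 8.61 in LysMCre;Arntfl/fl and 7.96, 8.29, 7.72, 7.94 and 8.13 in LysMCre macrophages. Every LysMCre;Arntfl/fl array stood above every LysMCre array, the nearest pair being LysMCre;Arntfl/fl replicate 2 and LysMCre replicate 2. The means were 8.50 ± 0.12 (SD, n = 4) and 8.01 ± 0.22 (SD, n = 5), a 1.40-fold difference that did not pass the threshold (log2 fold change 0.49, 95% interval 0.23 to 0.75, adjusted p = 0.112 from limma). Nr1h2, which encodes the ubiquitous LXRβ, was not analysed here. Of the genes for its partner RXR, Rxra differed by 0.19 on the log2 scale (adjusted p = 0.399 from limma) and Rxrb by 0.10 (adjusted p = 0.758 from limma).

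Among the 8 efflux genes, the largest differences were in Apoc1 and Apoc2, neighbours of Apoe in an apolipoprotein cluster on chromosome 7 that LXRs are known to induce in macrophages. Apoc1, a small apolipoprotein of triglyceride-rich particles and high-density lipoprotein, had values of 6.61, 7.14, 6.99 and 6.57 in LysMCre;Arntfl/fl and 6.54, 6.28, 6.60, 6.22 and 6.31 in LysMCre macrophages. LysMCre;Arntfl/fl replicates 2 and 3 carried most of its difference, while replicates 1 and 4 lay beside the upper LysMCre arrays (log2 fold change 0.44, adjusted p = 0.223 from limma). Apoc2, the cofactor of lipoprotein lipase, had values of 8.92, 9.02, 8.60 and 8.57 in LysMCre;Arntfl/fl and 8.63, 8.53, 7.92, 8.43 and 8.33 in LysMCre macrophages. Here LysMCre replicate 3 was lowest and replicate 1 reached above 2 of the LysMCre;Arntfl/fl arrays (log2 fold change 0.41, adjusted p = 0.322 from limma). Apoe itself, whose product accepts cholesterol outside the cell, had means of 8.23 ± 0.17 (SD, n = 4) in LysMCre;Arntfl/fl and 8.28 ± 0.08 (SD, n = 5) in LysMCre macrophages and was the one efflux gene with a negative log2 fold change (-0.06, 95% interval -0.27 to 0.15, adjusted p = 0.890 from limma). Genes of the same cluster thus had differences of unlike size.

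The transporters that load cholesterol onto acceptors differed less. Abcg1, which passes cholesterol to mature high-density lipoprotein, had values of 9.09, 8.92, 9.02 and 9.12 in LysMCre;Arntfl/fl and 8.91, 8.90, 8.56, 8.43 and 8.99 in LysMCre macrophages. The LysMCre;Arntfl/fl arrays were tight, and LysMCre replicate 5 was the only control array among them, while replicates 3 and 4 lay well below (log2 fold change 0.28, 95% interval 0.01 to 0.56, adjusted p = 0.420 from limma). Abca1, which lipidates apolipoprotein A-I, had means of 11.76 ± 0.15 (SD, n = 4) and 11.59 ± 0.18 (SD, n = 5) in LysMCre;Arntfl/fl and LysMCre macrophages (log2 fold change 0.18, 95% interval -0.07 to 0.43, adjusted p = 0.609 from limma). Mylip, a ubiquitin ligase induced by LXRs that limits lipoprotein uptake, had values of 11.19, 10.77, 11.18 and 11.17 in LysMCre;Arntfl/fl and 10.80, 10.93, 10.63, 10.75 and 11.03 in LysMCre macrophages. Its LysMCre;Arntfl/fl replicates 1, 3 and 4 stood above all LysMCre arrays and replicate 2 lay among them (log2 fold change 0.25, adjusted p = 0.455 from limma).

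Srebf1 and Lpcat3 act on fatty acid synthesis and on membrane composition. Srebf1, the gene of SREBP-1, had values of 8.17, 7.77, 7.98 and 7.87 in LysMCre;Arntfl/fl and 7.79, 7.87, 7.84, 7.80 and 7.95 in LysMCre macrophages, and the arrays were mixed (log2 fold change 0.09, 95% interval -0.11 to 0.30, adjusted p = 0.785 from limma). Lpcat3, which places polyunsaturated chains in phospholipids, had a log2 fold change of 0.06 (95% interval -0.15 to 0.28, adjusted p = 0.875 from limma). Averaged over the 8 efflux genes, each LysMCre;Arntfl/fl array (9.08 to 9.25) stood above each LysMCre array (8.84 to 9.02), and LysMCre replicates 3 and 4 were the lowest, at 8.84 each.

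**Figure D2:**
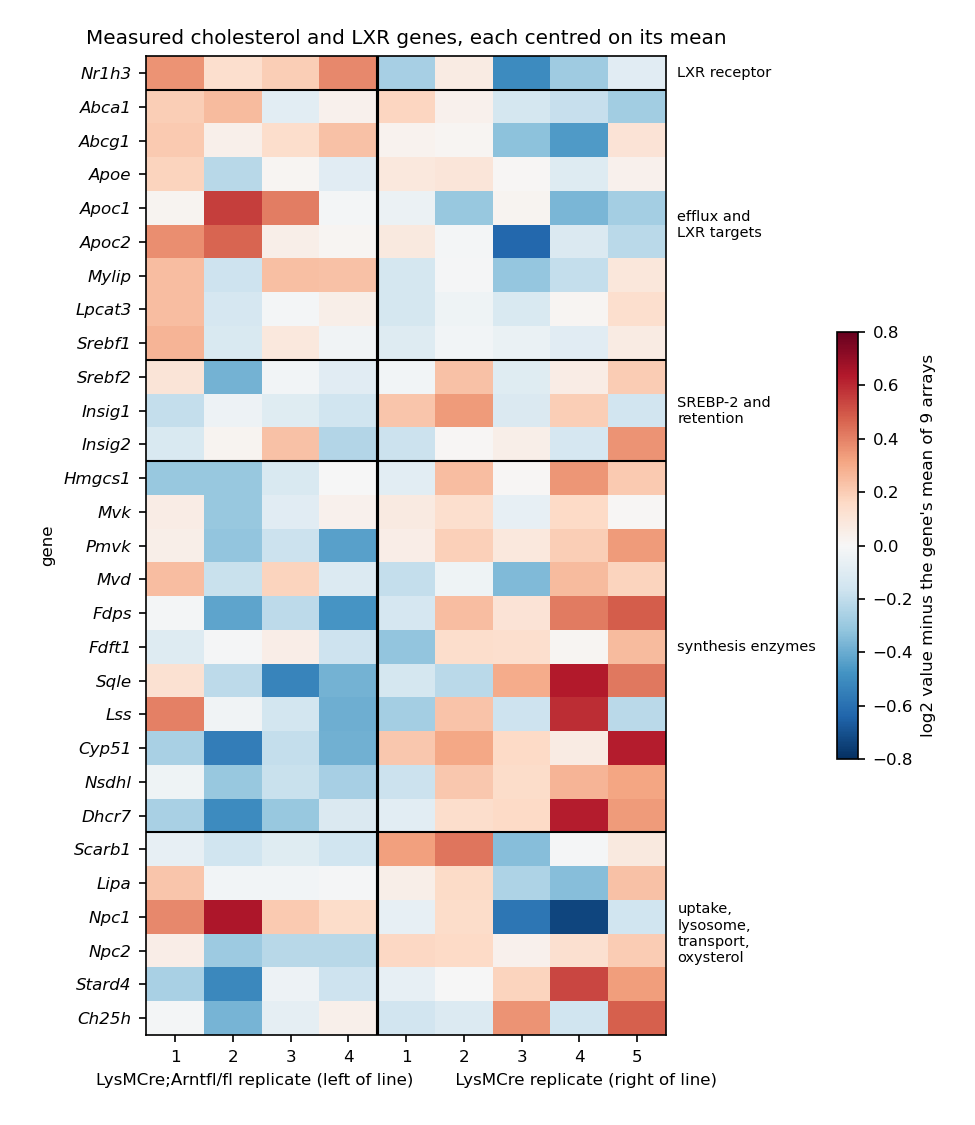
Log2 value of each of the 29 measured genes minus its mean over the 9 arrays, as colour from blue (lower) to red (higher), with LysMCre;Arntfl/fl replicates 1 to 4 left of the vertical line, LysMCre replicates 1 to 5 right of it, and genes by role down the y axis. Nr1h3 is red on all 4 LysMCre;Arntfl/fl arrays, and Cyp51 and Dhcr7 are blue on all 4.

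The genes of sterol sensing had small negative differences. Srebf2, which encodes the master regulator SREBP-2, had values of 9.96, 9.49, 9.84 and 9.77 in LysMCre;Arntfl/fl and 9.84, 10.10, 9.77, 9.92 and 10.07 in LysMCre macrophages. The arrays overlapped, with LysMCre;Arntfl/fl replicate 2 lowest (log2 fold change -0.17, 95% interval -0.42 to 0.08, adjusted p = 0.635 from limma). Insig1, a SREBP-2 target whose product holds the SREBP complex in the endoplasmic reticulum, had values of 9.84, 9.98, 9.93 and 9.86 in LysMCre;Arntfl/fl and 10.24, 10.37, 9.91, 10.22 and 9.87 in LysMCre macrophages. LysMCre replicates 1, 2 and 4 stood above all others and replicates 3 and 5 fell within the narrow LysMCre;Arntfl/fl range (log2 fold change -0.22, adjusted p = 0.507 from limma). Insig2, its paralog, had values of 7.65, 7.80, 8.01 and 7.54 in LysMCre;Arntfl/fl and 7.60, 7.78, 7.82, 7.64 and 8.13 in LysMCre macrophages, which overlapped almost fully (log2 fold change -0.05, 95% interval -0.33 to 0.24, adjusted p = 0.937 from limma).

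Along the synthesis pathway, the difference was widest at Cyp51, the lanosterol demethylase, an oxygen-consuming step early in the conversion of lanosterol. Its log2 values were 7.49, 7.20, 7.56 and 7.37 in LysMCre;Arntfl/fl and 7.97, 8.06, 7.91, 7.82 and 8.38 in LysMCre macrophages. The groups did not overlap, and LysMCre replicate 5 was the highest array. The means were 7.40 ± 0.16 (SD, n = 4) and 8.03 ± 0.22 (SD, n = 5), so Cyp51 was 1.54-fold lower in LysMCre;Arntfl/fl macrophages, with an adjusted p just above the threshold (log2 fold change -0.62 with a standard error of 0.12, 95% interval -0.89 to -0.35, adjusted p = 0.0652 from limma). Fitted and adjusted over only the probe sets with 1 symbol its adjusted p was 0.0476 from limma, and over only those above the median brightness 0.0395. In both it was called. The array values were the same, but the fit and the adjustment were redone on those probe sets. Over all settings tried its adjusted p ran from 0.0395 to 0.235.

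Dhcr7, the reductase of the last step to cholesterol, had values of 7.71, 7.46, 7.66 and 7.85 in LysMCre;Arntfl/fl and 7.88, 8.10, 8.13, 8.59 and 8.30 in LysMCre macrophages. The groups did not overlap, although LysMCre;Arntfl/fl replicate 4 came close to LysMCre replicate 1 (log2 fold change -0.53, 95% interval -0.84 to -0.23, adjusted p = 0.139 from limma). Pmvk, the phosphomevalonate kinase, had values of 8.92, 8.55, 8.70 and 8.43 in LysMCre;Arntfl/fl and 8.92, 9.06, 8.95, 9.06 and 9.21 in LysMCre macrophages. Replicate 1 of each genotype was equal to 2 decimals, and without that pair the groups were well apart (log2 fold change -0.39, 95% interval -0.63 to -0.15, adjusted p = 0.167 from limma). Each of these 3 enzymes had an NF-Y box in a promoter window, as given above. For Cyp51 this was its only window, whereas Pmvk and Dhcr7 also had windows without the box. Mvk, Mvd and Lss, whose differences were small, had the box in a window as well.

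Fdps, which makes farnesyl diphosphate for sterols and for protein prenylation, had values of 8.80, 8.40, 8.61 and 8.35 in LysMCre;Arntfl/fl and 8.69, 9.06, 8.93, 9.23 and 9.30 in LysMCre macrophages. LysMCre replicate 1 was the only control array within the LysMCre;Arntfl/fl range (log2 fold change -0.50, adjusted p = 0.171 from limma). Sqle, the squalene epoxidase, which also uses oxygen and is a control point of the pathway, had values of 8.49, 8.15, 7.84 and 7.98 in LysMCre;Arntfl/fl and 8.23, 8.15, 8.66, 9.001 and 8.79 in LysMCre macrophages. LysMCre replicates 3, 4 and 5 stood above all other arrays and replicates 1 and 2 lay within the LysMCre;Arntfl/fl range (log2 fold change -0.45, 95% interval -0.87 to -0.03, adjusted p = 0.399 from limma).

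The remaining enzymes showed smaller differences. Nsdhl, a sterol dehydrogenase downstream of Cyp51, had means of 8.00 ± 0.12 (SD, n = 4) in LysMCre;Arntfl/fl and 8.35 ± 0.19 (SD, n = 5) in LysMCre macrophages (log2 fold change -0.35, adjusted p = 0.221 from limma). Hmgcs1, the HMG-CoA synthase whose window held both the sterol core and the NF-Y boxes, had means of 8.09 ± 0.15 (SD, n = 4) and 8.42 ± 0.18 (SD, n = 5) in LysMCre;Arntfl/fl and LysMCre macrophages (log2 fold change -0.33, adjusted p = 0.262 from limma). Mvk, the mevalonate kinase (-0.13), Fdft1, the squalene synthase (-0.10), and Lss, the lanosterol synthase (-0.08), had log2 fold changes with intervals that held zero. Mvd, the mevalonate diphosphate decarboxylase, was the one enzyme with a positive log2 fold change (0.06, 95% interval -0.25 to 0.38, adjusted p = 0.922 from limma). Lss was the one member below the median brightness of all probe sets.

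**Figure D3:**
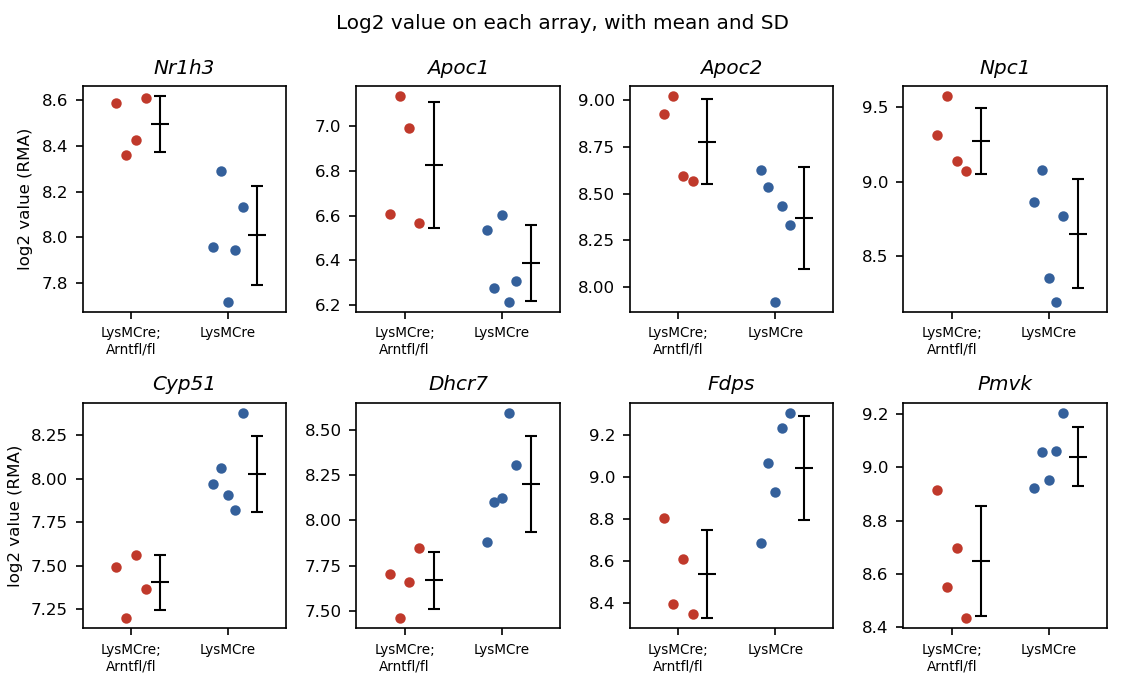
Log2 value of 8 genes on each array, with LysMCre;Arntfl/fl (red, left) and LysMCre (blue, right) as points and the mean with SD as a bar beside each group; the y axis differs between panels. Nr1h3, Apoc1, Apoc2 and Npc1 in the top row have the higher mean in LysMCre;Arntfl/fl, and Cyp51, Dhcr7, Fdps and Pmvk below have the lower one.

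Averaged over the 11 enzymes, the LysMCre;Arntfl/fl arrays stood at 8.05, 7.77, 7.91 and 7.82 and the LysMCre arrays at 7.96, 8.21, 8.11, 8.39 and 8.33. The order was broken by 1 pair, since LysMCre;Arntfl/fl replicate 1 lay above LysMCre replicate 1. LysMCre replicate 1 was also 1 of the 2 LysMCre arrays with low epithelial markers, and without both of these arrays, an alternative chosen after seeing the data, the median of the enzymes was -0.42 and that of the efflux genes 0.29. In the same order of replicates, the epithelial means were 8.77, 8.34, 8.42 and 9.09 on the LysMCre;Arntfl/fl arrays. On the LysMCre arrays they were 7.38, 7.27, 9.32, 9.69 and 8.41. The neutrophil and adipocyte means were higher on every LysMCre;Arntfl/fl array, as given above. The part of epithelial cells, neutrophils and adipocytes in the lower enzyme means was not tested.

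**Figure D4:**
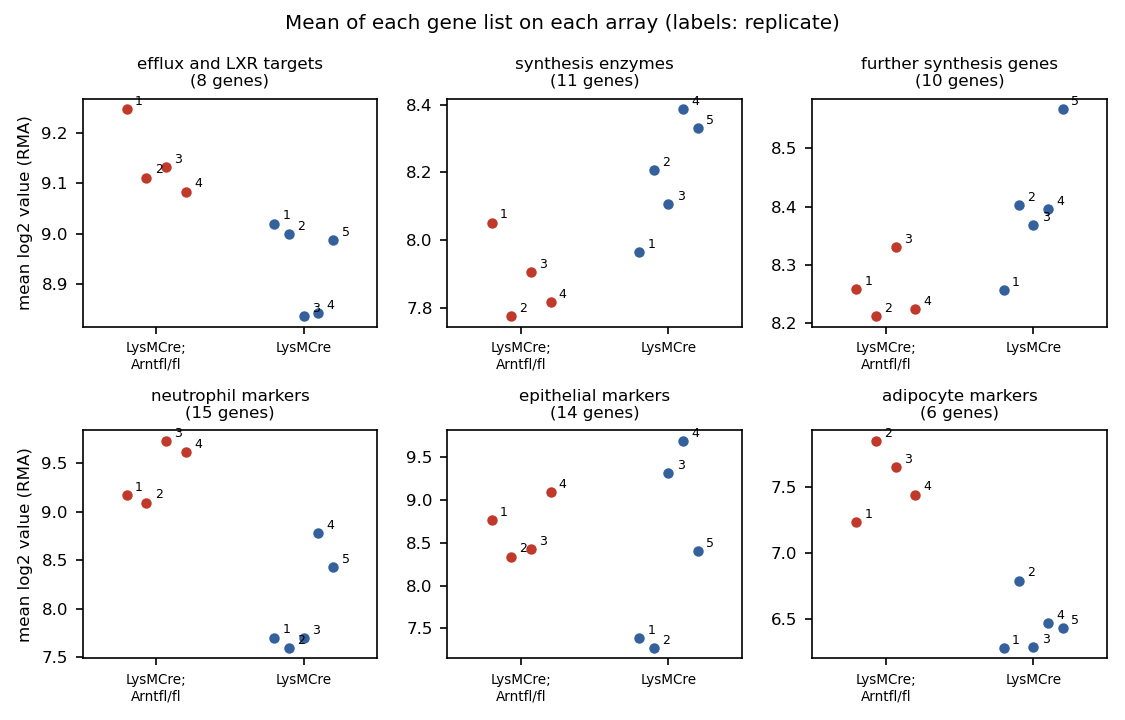
Mean log2 value of 6 gene lists on each array, with LysMCre;Arntfl/fl (red) left and LysMCre (blue) right in each panel and the replicate number beside each point; the y axis differs between panels. The efflux genes and other LXR targets (9.08 to 9.25 against 8.84 to 9.02), the neutrophil markers and the adipocyte markers do not overlap between genotypes. The synthesis enzymes overlap through replicate 1 of each.

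Genes that move cholesterol within the cell did not shift one way. Npc1, the membrane protein that exports cholesterol from lysosomes, had values of 9.31, 9.58, 9.14 and 9.07 in LysMCre;Arntfl/fl and 8.87, 9.08, 8.35, 8.20 and 8.77 in LysMCre macrophages. LysMCre replicate 2 lay just above the lowest LysMCre;Arntfl/fl array and the other LysMCre arrays lay below all of them, giving the largest positive difference of the list (log2 fold change 0.62, 95% interval 0.22 to 1.02, adjusted p = 0.188 from limma). A second, dimmer Npc1 probe set differed by only 0.14 (adjusted p = 0.861 from limma), with 5.70 to 6.57 in LysMCre;Arntfl/fl and 5.49 to 6.05 in LysMCre macrophages. Npc2, the soluble lysosomal protein that hands cholesterol to NPC1, had values of 10.90, 10.56, 10.63 and 10.63 in LysMCre;Arntfl/fl and 11.02, 11.01, 10.88, 10.98 and 11.06 in LysMCre macrophages. Its LysMCre;Arntfl/fl replicate 1 lay just within the LysMCre range (log2 fold change -0.31, adjusted p = 0.184 from limma). The 2 genes of this export step therefore had log2 fold changes of opposite sign, neither of them past the threshold.

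Stard4, a cytosolic sterol carrier and known SREBP-2 target, had values of 6.39, 6.13, 6.61 and 6.48 in LysMCre;Arntfl/fl and 6.59, 6.65, 6.82, 7.18 and 6.98 in LysMCre macrophages. LysMCre replicate 1 alone lay within the other group's range, as it did for Fdps (log2 fold change -0.44, adjusted p = 0.224 from limma). Scarb1, the high-density lipoprotein receptor SR-BI, had values of 9.23, 9.13, 9.20 and 9.14 in LysMCre;Arntfl/fl and 9.62, 9.72, 8.96, 9.29 and 9.37 in LysMCre macrophages. The LysMCre arrays spread on both sides of the tight LysMCre;Arntfl/fl group (log2 fold change -0.22, adjusted p = 0.620 from limma). Lipa, the lysosomal acid lipase that frees cholesterol from its esters, had a log2 fold change of 0.07 (95% interval -0.21 to 0.36, adjusted p = 0.893 from limma). Ch25h, which makes an oxysterol and lies next to Lipa on chromosome 19, had one of -0.19 (adjusted p = 0.730 from limma), and a second, dimmer Ch25h probe set one of 0.15 (adjusted p = 0.655 from limma).

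Further lists set the members beside the rest of their pathways. Of 16 other genes of sterol synthesis and SREBP processing 10 were measured, 3 with a positive and 7 with a negative log2 fold change (median -0.18), 0 of them called and 2 (20%) lower at an unadjusted p below 0.05 from limma, beside 5.79% of all probe sets and 9.37% of the bright ones with 1 symbol. The largest differences among them were Tm7sf2, a sterol reductase (-0.40, adjusted p = 0.241 from limma), Msmo1, a methylsterol oxidase (-0.31, adjusted p = 0.438 from limma), and Sc5d, a sterol desaturase (-0.26, adjusted p = 0.457 from limma). Their mean per array was 8.21 to 8.33 in LysMCre;Arntfl/fl and 8.26 to 8.57 in LysMCre macrophages, and overlapped. Of 19 other LXR-linked genes 14 were measured, 7 in each direction (median -0.07), and 1 was called lower, beside 0.151% of all probe sets. At an unadjusted p below 0.05 from limma, 1 (7.14%) was higher and 3 (21.4%) were lower, beside 5.72% and 5.79% of all probe sets. Of the bright ones with 1 symbol, 9.07% and 9.37% were. The genotypes did not overlap for 1 higher and 1 lower gene (7.14% each), against 2.52% and 2.22% of all probe sets. Among the bright ones with 1 symbol these shares were 4.27% and 3.7%.

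The called gene was Fads1, the desaturase that completes long polyunsaturated fatty acids and is regulated by LXR and SREBP-1. Fads1 had values of 9.21, 8.82, 8.85 and 8.86 in LysMCre;Arntfl/fl and 9.80, 9.94, 9.53, 9.46 and 9.72 in LysMCre macrophages, with no overlap, and was 1.69-fold lower (log2 fold change -0.76 with a standard error of 0.12, adjusted p = 0.0365 from limma). Leaving out 1 array at a time gave an adjusted p between 0.0262 and 0.126, and the call was kept without LysMCre;Arntfl/fl replicate 1 or LysMCre replicate 4 and lost without any other array. Fads2, its partner desaturase, had a log2 fold change of -0.71 with overlapping arrays (adjusted p = 0.245 from limma), and Scd1, an LXR-induced desaturase of saturated fatty acids, one of 0.49 (95% interval -0.18 to 1.16, adjusted p = 0.604 from limma), which was 0.74 when LysMCre;Arntfl/fl replicate 4 was left out and 0.31 when LysMCre replicate 2 was. The 3 desaturases thus did not share a sign.

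Of 14 other genes of cholesterol uptake, storage and oxysterol formation all were measured, 10 with a positive and 4 with a negative log2 fold change (median 0.17), and 0 were called. At an unadjusted p below 0.05 from limma, 3 (21.4%) were higher and 2 (14.3%) lower, beside 5.72% and 5.79% of all probe sets. Of the bright ones with 1 symbol, 9.07% and 9.37% were. The genotypes did not overlap for 2 higher genes (14.3%), against 2.52% of all probe sets and 4.27% of the bright ones with 1 symbol. Plin2, which coats lipid droplets, had values of 12.14, 12.16, 12.04 and 12.14 in LysMCre;Arntfl/fl and 11.55, 11.80, 11.34, 11.41 and 11.67 in LysMCre macrophages, with no overlap (log2 fold change 0.56, adjusted p = 0.0550 from limma). Gramd1b, which carries plasma membrane cholesterol to the endoplasmic reticulum, had values of 8.75, 8.98, 9.02 and 8.83 in LysMCre;Arntfl/fl and 8.29, 8.60, 8.26, 8.27 and 8.63 in LysMCre macrophages, also with no overlap (log2 fold change 0.49, adjusted p = 0.0965 from limma). Cyp27a1, the mitochondrial sterol hydroxylase, had a log2 fold change of -0.72 with wide spread in both groups (SD 0.39 for LysMCre;Arntfl/fl and 0.44 for LysMCre, adjusted p = 0.245 from limma). Plin2 is also abundant in fat cells, and the mean of the adipocyte markers stood higher on all LysMCre;Arntfl/fl arrays, as given above. Single markers differed in brightness. The dimmest, Adipoq, had means of 5.78 in LysMCre;Arntfl/fl and 4.98 in LysMCre, with overlapping arrays. The brightest, Fabp4, had means of 10.81 and 9.01. The part of fat cells in the value of Plin2 was not tested.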

How the data were processed

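Affymetrix Mouse Gene 2.0 arrays were hybridised with amplified RNA of sorted lamina propria macrophages, 1 mouse per array. The deposited values are on the log2 scale: the authors ran RMA, which background-corrects, quantile-normalises and summarises probes, and the submitters' processing notes name Partek 6.6. Annotation release, scan batches and probe set filters: not given in the sources used here. Each of the 9 arrays held 34365 values with medians of 5.98 to 6.04, pairs correlated between 0.976 and 0.990, and 0 pairs were identical. The authors' SAM permutation test was not run here.

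All probe sets were fitted with limma 3.58.1 in R 4.3.3 (lmFit, eBayes, two-sided, Benjamini-Hochberg over all probe sets). The thresholds were an adjusted p below 0.05 and a fold above 1.5. The authors' methods give the same numbers, but their 0.05 applies to a q-value from SAM, so calls here and theirs rest on unlike measures. The fit was tested on simulated data. Probe sets with several symbols were tested and assigned to no gene. The members and lists were chosen with earlier results of these data known, and lists are described by counts and medians with no test. Values of every array are given for Arnt, for called or non-overlapping members, for Nr1h3, Srebf1 and Srebf2, and for up to 4 members of each role with the largest differences; of the further lists, the called genes and up to 3 each are named, and the values by array of Plin2, Gramd1b and Fads1, and those of Rxra and Rxrb, were picked after they were seen. Tried as alternatives were array weights, robust variances, a variance trend, the methods' t-test, other filters, thresholds and normalisations, all own probe sets of a gene averaged, a replicate block and each array left out. The labels do not say whether same-numbered arrays were paired, and the main fit used no pairing. After removing genotype means, same-numbered arrays correlated at -0.120, -0.0715, -0.000463 and 0.166. Differently numbered arrays were not compared in this way, so these values cannot decide whether the numbers mark pairs. Precision is set by how few arrays there are. All 32 symbols matched RefSeq.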

Additional observations from a re-analysis of the deposited data

Results flagged for a closer look

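Dixon's ratio, the gap of the extreme array over the range of its group, was examined in 78 groups of 4 or 5 arrays, each for 1 gene in 1 genotype. In 7 of these groups a value stood apart, some of them on the same array, and chance alone flags about 1 in 20 groups. Mylip was 10.77 on LysMCre;Arntfl/fl replicate 2, with the next array at 11.17. Lipa was 10.28 on LysMCre;Arntfl/fl replicate 1, with the next at 10.04, and Fads1 was 9.21 on the same array, with the next at 8.86. Scd1 was 7.36 on LysMCre;Arntfl/fl replicate 4, with the next at 8.26, and its log2 fold change without that array was 0.74. Sc5d was 9.06 on LysMCre;Arntfl/fl replicate 3, with the next at 8.78, and Plin2 was 12.04 there, with the next at 12.14. In the LysMCre group, Msmo1 was 8.37 on replicate 3, with the next at 8.88. The Fads1 array lies toward the LysMCre values and the difference without it was -0.85 on the log2 scale, while without Mylip's low array its log2 fold change was 0.35 (adjusted p = 0.264 from limma).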

How the results depend on the processing

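Of the settings tried, 0 made a member significant in the higher direction, and 1 member, Cyp51, was called lower when only probe sets with 1 symbol were tested, when only those above the median brightness were tested, and at an adjusted p below 0.10. Members beyond 1.5-fold higher numbered 0 with array weights and with all own probe sets averaged, and 0 to 1 with 1 array left out; those lower numbered 0 to 3 with 1 array left out and 5 without both LysMCre arrays of low epithelial level, a setting chosen after seeing the data. The median of the synthesis enzymes ran from -0.42 to -0.31 with 1 array left out and that of the efflux genes from 0.18 to 0.24. Arnt stayed lower in every setting, but its adjusted p was 0.107 by the methods' t-test (log2 fold change -0.66) and 0.0759 without the low epithelial arrays (-0.60), and between 0.0197 and 0.0883 from limma with 1 array left out (-0.70 to -0.62). The sign turned only for members near zero with 1 array left out: Lpcat3 ran from -0.0062 to 0.12, Mvd from -0.018 to 0.13, Apoe from -0.12 to 0.0086, Insig2 from -0.13 to 0.037, Lss from -0.22 to 0.063 and Lipa from -0.0032 to 0.14. Fads1 had an adjusted p of 0.161 by the methods' t-test and, from limma, 0.116 without the low epithelial arrays, and Plin2 was called higher after a further quantile normalisation (adjusted p = 0.0390 from limma). The cause was not tested.

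With the replicate number as a block, which leaves LysMCre replicate 5 without a partner and so out of the difference, all probe sets gave 3 higher and 2 lower calls, 0 members lay beyond 1.5-fold lower, Arnt was -0.68 (adjusted p = 0.138 from limma), Insig2 turned to 0.037, Fads1 was -0.75 and lost its call (adjusted p = 0.160 from limma) and Cyp51 was -0.53 (adjusted p = 0.235 from limma). Whether same-numbered arrays share more than a number is not given in the labels.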
